A study of Brassica napus with 6 samples.

Results

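Chromosome A09 is a chromosome of the A subgenome of rapeseed (Brassica napus), an allotetraploid crop whose nuclei carry an A and a C subgenome. Its genes were taken as all rows of the deposited count table whose ID starts with BnaA09, and were then selected on their read counts in these 6 libraries, which are measured values. Of these 6852 rows, 3297 (48.1%) had 10 or more counts in at least 3 of the 6 libraries and are called the expressed A09 genes below. The whole table holds 100194 rows, and the same count rule kept 51.1% of the 87239 rows placed on the other 18 chromosomes. Of the A09 rows that were not kept, 2110 had 0 counts in every library and 1445 had counts below the rule. The expressed genes held 99.7% of the A09 counts. The third-highest count decides whether a row is kept. It was 10 in 21 kept rows, with mean levels of 0.401 to 0.688 CPM (read counts scaled to library size, with TMM factors for composition), such as ID number 45 with 3, 10 and 5 counts in mutant libraries 1, 2 and 3 and 14, 7 and 13 in Westar libraries 1, 2 and 3. It was 9 in 35 rows left out, at 0.354 to 0.661 CPM, such as ID number 84 with 7, 5 and 4 counts in the mutant libraries and 24, 9 and 11 in the Westar libraries. Of the expressed genes, 3286 had 10 or more counts in at least 1 library of each genotype, 2 only in mutant and 9 only in Westar libraries, and at these 2 and 9 the rule itself set the genotypes apart.

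The study sequenced polyadenylated RNA from shoot apices of plants grown in a chamber, in 3 libraries of the mutant BnaC3.lfy△I2 and 3 of its wild type, the cultivar Westar. In the mutant the second intron of the C3 copy of LEAFY was deleted, and the question asked was what this intron contributes to inflorescence formation. No source used here gives the age of the plants, the number of edited lines or whether plants were pooled. The libraries are numbered but not said to come from separate plants. The p-values set the difference between genotypes against the spread between libraries, which may be partly technical. They may therefore not speak to variation between plants.

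LEAFY is a plant transcription factor that gives a floral identity to the meristems that form on the flanks of the shoot apex. The edited copy lies on C03, so by the labels A09 carries no edited gene. In an allotetraploid most genes of an A chromosome have a near-identical partner on a C chromosome, which is called a homoeologue. Reads of such partners can be assigned to either copy, and no source used here says how the counting treated them.

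The deposited IDs are not paired with gene names, and 0 of the A09 IDs matched the RefSeq gene table of the Da-Ae assembly. For this reason no A09 gene has a function or a sequence here, LEAFY itself could not be checked, and the tissue could not be checked by marker genes. Each ID carries a running number, and the genes were ordered by it; no source used here states that it follows the chromosome. Genes are called below by this ID number, which is the 7-digit number of the ID divided by its step of 100. It is a rank and not a base position. The expressed genes run from ID number 1 to 6652, and the last A09 row is number 6660. Numbered suffixes, which mark several rows under 1 number, appear on 192 A09 rows, 12 of them expressed.

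The library totals were 18321109, 19017318 and 15922207 counts in mutant libraries 1, 2 and 3, and 23261028, 17797615 and 18255399 counts in Westar libraries 1, 2 and 3. Over the expressed A09 genes, no pair of libraries agreed within sampling noise (lowest chi-square per gene 7.87), and all 6 entered as libraries of their own. On other chromosomes 2 libraries stand apart, mutant library 3 with low A10 genes and Westar library 1 with low genes in the first part of C09. The median log2 fold change of A10 was -0.10. The counts of called genes, the shares of tested genes and the window and end medians between genotypes are also given without these 2 libraries.

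The share of all counts that fell on A09 overlapped between the genotypes. It took 6.48%, 6.67% and 6.53% of all counts in mutant libraries 1, 2 and 3, and 6.63%, 6.48% and 6.55% in Westar libraries 1, 2 and 3. The means were 6.56% ± 0.0986 in the mutant and 6.56% ± 0.0765 in Westar (SD, n = 3 each). A two-sided exact permutation test gave p = 1, and with 3 libraries against 3 it cannot go below 0.1. The number of expressed A09 genes with at least 10 counts was 3209, 3223 and 3191 in the mutant libraries and 3248, 3212 and 3231 in the Westar libraries (exact two-sided permutation p = 0.2, n = 3 each). These counts overlap between the groups, and the deepest library, Westar library 1, had the most.

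The levels of the expressed A09 genes covered about the same range as those of the 44585 genes kept on the other chromosomes. Their mean level over the 6 libraries had a median of 9.14 CPM and quartiles of 3.38 and 21.2 CPM. On the other chromosomes the median was 8.5 CPM and the quartiles were 3.08 and 20.5 CPM. A level above 100 CPM was reached by 89 A09 genes and one above 1000 CPM by 2, while 233 lay under 1 CPM. Within a group, the libraries scattered by a median SD of 0.21 log2 units per gene in the mutant and 0.17 in Westar. The same SDs on the other chromosomes were 0.21 in the mutant and 0.18 in Westar.

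The most abundant A09 transcript came from ID number 3955. Its level was 1265, 1231 and 1413 CPM in mutant libraries 1, 2 and 3, and 1255, 1273 and 1239 CPM in Westar libraries 1, 2 and 3. The groups overlap, and this single gene held 1.95% of the A09 counts. ID number 540 had 1064, 857 and 1034 CPM in the mutant libraries and 863, 1251 and 1186 CPM in the Westar libraries, a wider scatter with overlap between the groups. ID number 136 had 797, 661 and 743 CPM in the mutant libraries and 683, 620 and 577 CPM in the Westar libraries. None of the 3 passed the test between genotypes (log2 fold changes 0.05, -0.16 and 0.23; edgeR adjusted p = 0.884, 0.74 and 0.49).

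Expressed genes were spread evenly over A09 apart from 1 long stretch with few of them. In blocks of 500 ID numbers, 48.5% to 62.3% of the rows were expressed in 12 of the 14 blocks, with median levels of 7.36 to 10.8 CPM. In the block of numbers 2501 to 3000 this share was 5.39% (27 of 501 rows), and in that of 3001 to 3500 it was 2.8% (14 of 500 rows). The whole stretch of 1001 rows held 41 expressed genes and 0.868% of the A09 counts. In it 50.7% of the rows had 0 counts in every library, against 27.4% of the other A09 rows.

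The few genes expressed in this stretch were also lower, with a median of 3.94 CPM, although 15 of the 41 reached 10 CPM and the highest reached 117 CPM. The longest run without an expressed gene went from number 2559 to number 2906. Blocks as empty as these were found on A05, where the sparsest block of 500 numbers had 1.6% of its rows expressed, and on A06, with 0.6%. On the other 16 chromosomes the sparsest block had at least 33.4%. Of the 41 genes, 38 were tested between the genotypes, with a median log2 fold change of 0.03. The number called changed was 0, where 0.194% of all tested genes were called, too low a share to show in 38 genes.

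**Figure D1:**
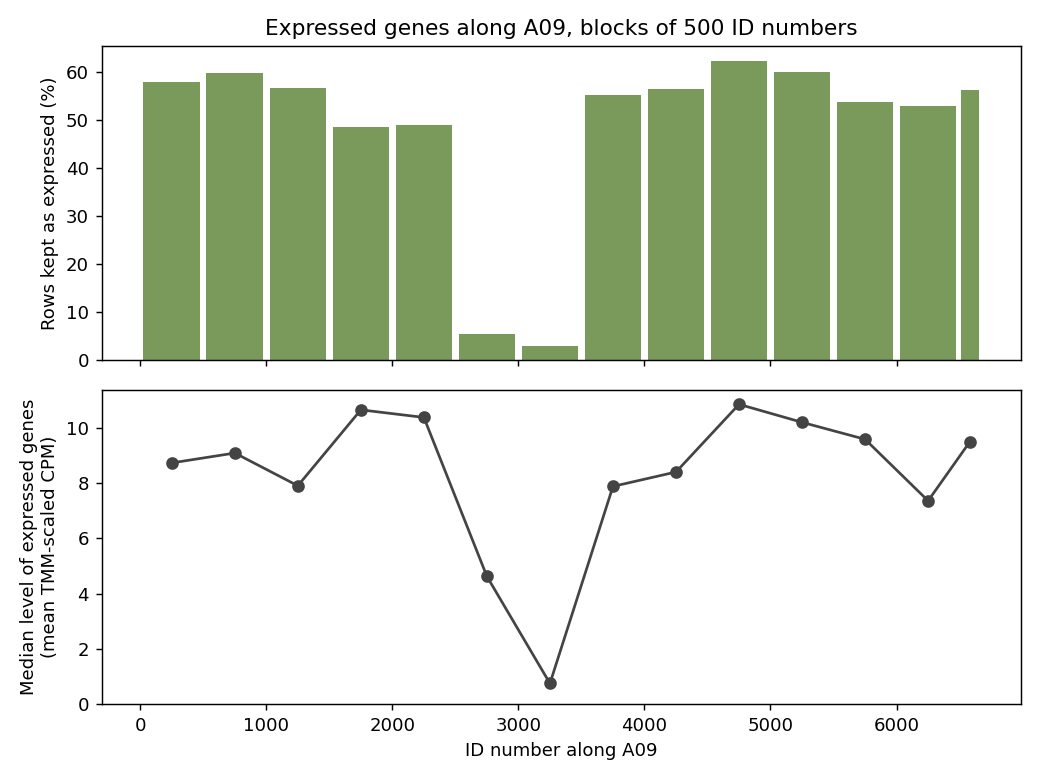
Share of A09 rows kept as expressed (upper panel, percent) and median mean level of the expressed genes (lower panel, TMM-scaled CPM) in blocks of 500 ID numbers, the last block being shorter. The blocks from 2501 to 3500 stand at 5.39% and 2.8%, against 48.5% to 62.3% in the other 12.

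Between the genotypes 7 expressed A09 genes changed, 6 of them lower and 1 higher in the mutant. These 7 are 0.213% of the 3284 A09 genes that could be tested, where 0.194% of all 48524 tested genes were called (edgeR's quasi-likelihood F test, with p adjusted by Benjamini-Hochberg over the table, threshold 0.05). The share on A09 is thus near that of the whole table. Of the 7, 1 gene (number 4326) had 10 or more counts in Westar libraries only. Of all tested genes 0.0701% were called lower and 0.124% higher, against 0.183% and 0.0305% on A09. The count by direction was known when A09 was chosen and was not tested here.

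The calls depended on which libraries were used. Without mutant library 1, 2 and 3 in turn the count was 2 (0.0608%, against 0.0648% of all genes tested in the same fit), 1 (0.0304%, against 0.067%) and 12 (0.365%, against 0.339%). Without Westar library 1, 2 and 3 it was 1 (0.0304%, against 0.0366%), 3 (0.0912%, against 0.113%) and 1 (0.0304%, against 0.0527%). The count on A09 thus moved with that of the whole table. Without mutant library 3 it included 6 higher and 6 lower genes, 3 of them among the 7, and without mutant library 3 and Westar library 1 together it was 4, with 3 higher (0.122%, against 0.105%). DESeq2 called 44 A09 genes, 23 higher and 21 lower and all 7 among them, which is 1.33% of the 3297 expressed A09 genes. Its share over all 54963 rows with an adjusted p was also 1.33%, but these include rows below the count rule.

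The gene that rose was BnaA09T0101900WE, ID number 1019. It had 371, 340 and 222 counts in mutant libraries 1, 2 and 3, against 79, 105 and 118 in Westar libraries 1, 2 and 3. All mutant libraries lay above all Westar libraries. Its level was 17.7 ± 3.57 CPM in the mutant and 5.19 ± 1.66 CPM in Westar (SD, n = 3 each). The log2 fold change was 1.78 ± 0.25 (SE, with edgeR adjusted p = 0.0353). Its call was lost in 6 of 14 alternatives.

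A few numbers before it, ID number 1016 had 17.2, 15.1 and 3.19 CPM in mutant libraries 1, 2 and 3, and 4.86, 3.6 and 1.07 CPM in Westar libraries 1, 2 and 3. Mutant libraries 1 and 2 were high at this gene, mutant library 3 lay within the Westar range, and the test was not passed (edgeR adjusted p = 0.297, log2 fold change 1.88). The gene between them, number 1018, did not pass (log2 fold change 0.06).

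The fall with the smallest adjusted p was at ID number 5613, the most abundant of the 7. It had 810, 780 and 724 counts in the mutant libraries, against 4387, 3483 and 2585 in the Westar libraries. The mutant libraries lay close together and far below every Westar library. The level was 44.2 ± 2.34 CPM in the mutant and 173 ± 31.5 CPM in Westar (SD, n = 3 each), a log2 fold change of -1.97 ± 0.15 (SE; edgeR adjusted p = 0.000943). Its call was the one that held in all 14 alternatives run for it.

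The nearest expressed genes on either side of number 5613 showed no such fall. Number 5612 averaged 14.4 CPM in the mutant and 12.2 CPM in Westar. Number 5616 was about as abundant as 5613 in Westar, and averaged 190 CPM in the mutant and 179 CPM in Westar. Over the 3 expressed genes on each side the log2 fold changes ran from -0.44 to 0.25, and the lowest edgeR adjusted p was 0.505.

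The largest fall was at BnaA09T0432600WE, ID number 4326, which was close to silent in the mutant. It had 1, 0 and 1 counts in mutant libraries 1, 2 and 3, against 22, 42 and 39 in Westar libraries 1, 2 and 3. No Westar library came near the mutant counts. The gene was kept through Westar libraries only, so the count rule fixed its direction and the lack of overlap. From the summed counts the mutant was 44.8-fold lower, with an exact 95% interval from 12.1-fold to 375-fold that covers counting error only (edgeR adjusted p = 0.0353). The call was lost in 8 of 13 alternatives.

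The expressed gene just before it also had few mutant counts. ID number 4325 had 0, 2 and 0 counts in the mutant libraries and 16, 42 and 18 in the Westar libraries. It did not pass (edgeR adjusted p = 0.1), and like number 4326 it was kept through Westar libraries only, so that the rule fixed its direction. On the other side, number 4327 had 2.83, 5.22 and 3.25 CPM in mutant libraries 1, 2 and 3. In Westar libraries 1, 2 and 3 it had 6.77, 5.03 and 7 CPM, and the groups overlap. Its log2 fold change was -0.73, and it did not pass (edgeR adjusted p = 0.339). Further out, numbers 4321 and 4322 on one side had log2 fold changes of -0.01 and 0.65 and numbers 4329 and 4330 on the other 0.07 and 0.29, and none passed. Number 4322 averaged 250.1 CPM in the mutant and 159 CPM in Westar, with overlap between the groups (edgeR adjusted p = 0.346). The 2 low genes thus stand next to each other in ID order, between genes with reads in both genotypes. Whether they share reads was not tested.

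The other large fall was at BnaA09T0508100WE, ID number 5081. It had 13, 14 and 9 counts in the mutant libraries, against 88, 49 and 59 in the Westar libraries, and the groups do not overlap. The level was 0.681 ± 0.102 CPM in the mutant and 3.2 ± 0.429 CPM in Westar (SD, n = 3 each). The log2 fold change was -2.22 ± 0.31 (SE, with edgeR adjusted p = 0.0353). Its call was lost in 8 of 14 alternatives.

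The remaining 3 falls were smaller. ID number 1169 had 1.75, 1.65 and 1.56 CPM in mutant libraries 1, 2 and 3, against 6.23, 5.72 and 6.89 CPM in Westar libraries 1, 2 and 3 (log2 fold change -1.92, edgeR adjusted p = 0.0129). ID number 328 had 2.43, 3.03 and 3.06 CPM in the mutant libraries and 10.01, 8.17 and 6.46 CPM in the Westar libraries (log2 fold change -1.53, edgeR adjusted p = 0.0365). ID number 4291 had 30.5, 21.7 and 22.6 CPM in the mutant libraries and 47.6, 50.6 and 46.7 CPM in the Westar libraries (log2 fold change -0.95, edgeR adjusted p = 0.0468). In each of these genes every mutant library lay below every Westar library, and number 4291 was the closest to the threshold. The calls of numbers 1169, 328 and 4291 were lost in 5, 8 and 7 of 14 alternatives.

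The 7 genes did not form a block. The closest pair, numbers 4291 and 4326, lay 35 numbers apart with 17 expressed genes between them. The 3 expressed genes on each side of the 7 make 42 neighbours, of which 0 were called (lowest edgeR adjusted p = 0.1). Since 0.194% of all tested genes were called, 42 genes are too few for this 0 to bear on blocks. The median log2 fold change of the 42 was 0.02. By ID number, 3 of the 7 lay before the stretch with few expressed genes and 4 after it.

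**Figure D2:**
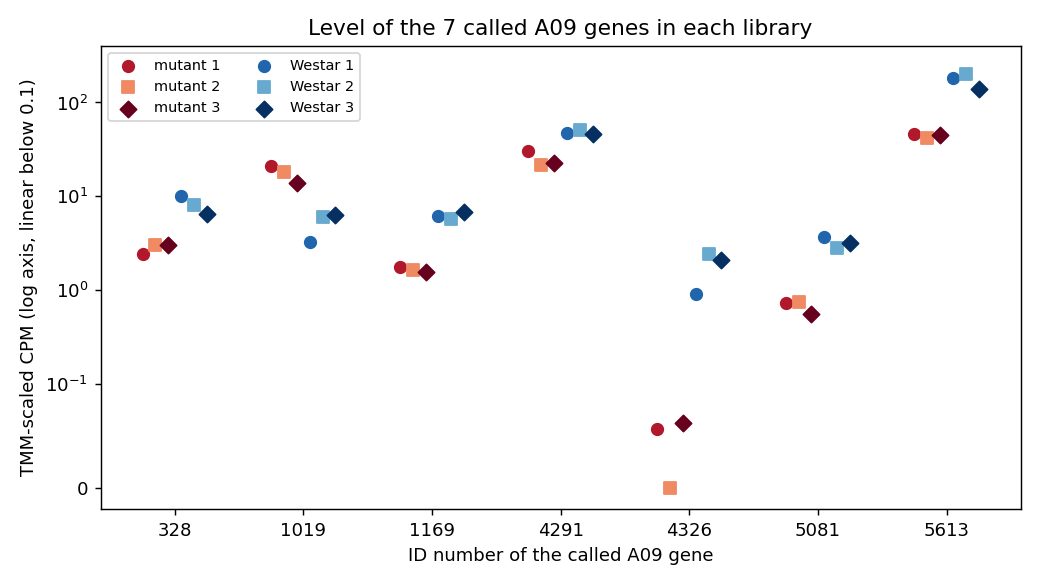
Level of the 7 called A09 genes in each library, in TMM-scaled CPM on an axis that is logarithmic above 0.1 and linear below it, with 3 mutant and 3 Westar points per gene in ID order. The groups do not overlap at any of the 7, and number 4326 is at 0 to 0.0625 CPM in the mutant.

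Some A09 genes had a fitted difference of 4-fold or more and did not pass the test. There were 7 of them, 5 higher and 2 lower in the mutant, with edgeR adjusted p from 0.1 to 0.524, and 4 of the 7 had reached 10 counts in 1 genotype only, where the count rule fixes the direction. ID number 5298 had 0, 0 and 5 counts in mutant libraries 1, 2 and 3, and 25, 36 and 57 in Westar libraries 1, 2 and 3. ID number 1336 had 147, 151 and 35 counts in the mutant libraries and 17, 28 and 18 in the Westar libraries. At ID number 302 the difference rested on mutant library 2, with 15, 186 and 4 counts in the mutant libraries and 45, 0 and 6 in the Westar libraries.

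No expressed A09 gene had 0 counts in all 3 libraries of 1 genotype, but 3 had 3 or fewer counts over a genotype. Numbers 4325 and 4326 are given above. The other, number 4721, had 2, 0 and 0 counts in the mutant libraries and 11, 30 and 23 in the Westar libraries, and it was not tested because it did not pass the filter on low counts. All 3 had 10 or more counts in Westar libraries only, so the count rule itself fixed that the mutant was the low genotype. The filter left out 13 of the 3297 expressed genes, and 5 other A09 rows that passed it but are not among the expressed genes were not called.

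Shares over all tested A09 genes, the 7 called ones included, were set beside those of the whole table. The mutant and Westar libraries did not overlap at 631 of the 3284 tested genes (19.2%), against 18.1% of all tested genes. The mutant was higher at 304 of them (9.26%, against 8.97% of all tested genes) and lower at 327 (9.96%, against 9.15%). An unadjusted p under 0.05 was reached by 386 (11.8%), against 11.5%, with 189 higher (5.76%, against 5.98%) and 197 lower in the mutant (6%, against 5.54%). A fitted difference of at least 2-fold, called or not, was seen upward in the mutant at 43 genes (1.31%, against 1.9%) and downward at 37 (1.13%, against 1.07%). Without mutant library 3 and Westar library 1, an unadjusted p under 0.05 was reached by 10.2% of the tested A09 genes, against 10.5% of all tested genes. In the same fit 2.69% were at least 2-fold higher, against 2.95%, and 1.68% at least 2-fold lower, against 1.81%. With 2 libraries left per genotype, 42.4% did not overlap, against 42.1%. The median log2 fold change over A09 was 0.01, where the median over all tested genes was 0.00085 and the other chromosomes except A10 lay between -0.01 and 0.03.

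**Figure D3:**
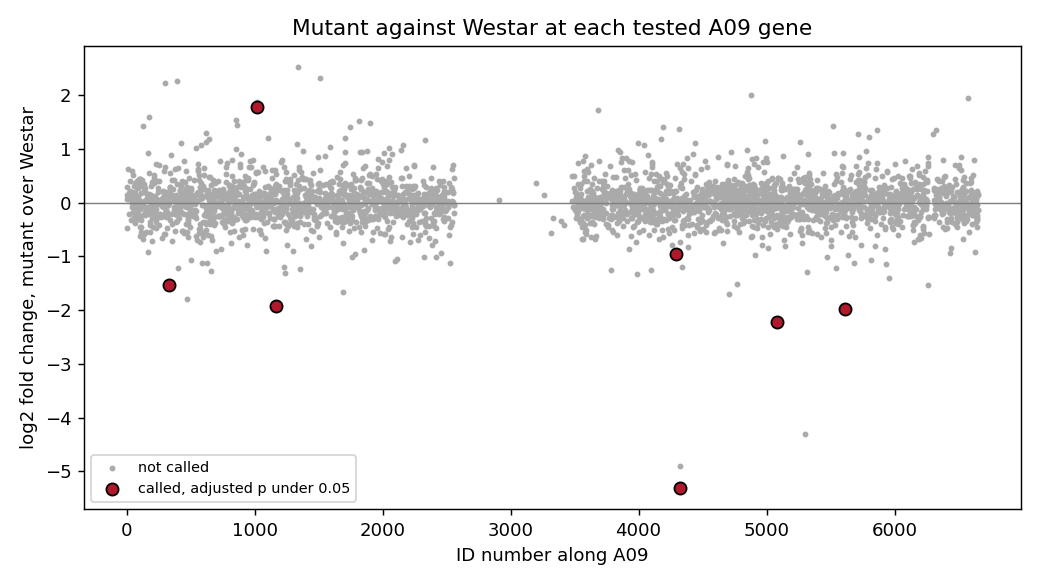
Log2 fold change, mutant over Westar, of the 3284 tested A09 genes (grey) against ID number, with the 7 called genes in red. The called genes lie at numbers 328, 1019, 1169, 4291, 4326, 5081 and 5613, and few genes are tested between 2501 and 3500.

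Along the chromosome each library was described by windows of 50 expressed genes in ID order. For each gene the level, as log2(CPM + 0.5), was set against the median of the other 5 libraries, and the median of these deviations was taken per window. The 66 windows gave 396 values, which ran from -0.20 to 0.16. Of these, 5.3% were more than 0.1 from 0, against 5.74% on the other chromosomes without A10 and C09. The lowest value was in mutant library 1, in the window from number 503 to 595. The median log2 fold change of the genotypes stayed within 0.1 of 0 in 65 of the 66 windows.

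The exception was the window from number 5696 to 5779, at a median log2 fold change of 0.20. Its deviations were 0.10, 0.12 and 0.09 in mutant libraries 1, 2 and 3, and -0.06, -0.14 and -0.08 in Westar libraries 1, 2 and 3. All 3 mutant libraries were high there and all 3 Westar libraries low. Of its 50 genes 39 were higher in the mutant, as were 50.1% of all tested genes. The groups did not overlap at 12 genes, all 12 of them higher in the mutant. Over all tested genes 8.97% did not overlap and were higher, and 18.1% did not overlap in either direction. An unadjusted p under 0.05 was reached by 10 genes (20%), against 11.5% of all tested genes. The window was picked by the median of these same 50 genes, so these deviations and shares follow in part from that choice. None of the 50 was called, against 0.194% of all tested genes (lowest edgeR adjusted p = 0.201).

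The gene with that lowest p, number 5713, had 55.0, 54.0 and 44.1 CPM in mutant libraries 1, 2 and 3, and 30.3, 35.9 and 39.0 CPM in Westar libraries 1, 2 and 3. Number 5756 had 43.8, 44.0 and 39.3 CPM in the mutant libraries and 30.2, 34.6 and 31.4 CPM in the Westar libraries. At both, the groups lay side by side with no overlap. The windows before and after were at -0.01 and -0.04, without such a difference.

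This window was singled out after its value was seen, as the highest of the 66. The highest of the 894 windows on the other chromosomes was 0.19. Group medians that did not overlap were common in such windows, at 11 of 66 on A09 (16.7%), 6 higher and 5 lower in the mutant, against 16.8% of the windows on the other chromosomes (8.61% higher and 8.17% lower). Without mutant library 3 and Westar library 1 it was 30 of 66 (45.5%), against 41.4%. Without mutant library 3 the median of the window was 0.18, without Westar library 1 it was 0.15, and without both libraries it was 0.19. Over its middle 25 genes it was 0.13.

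**Figure D4:**
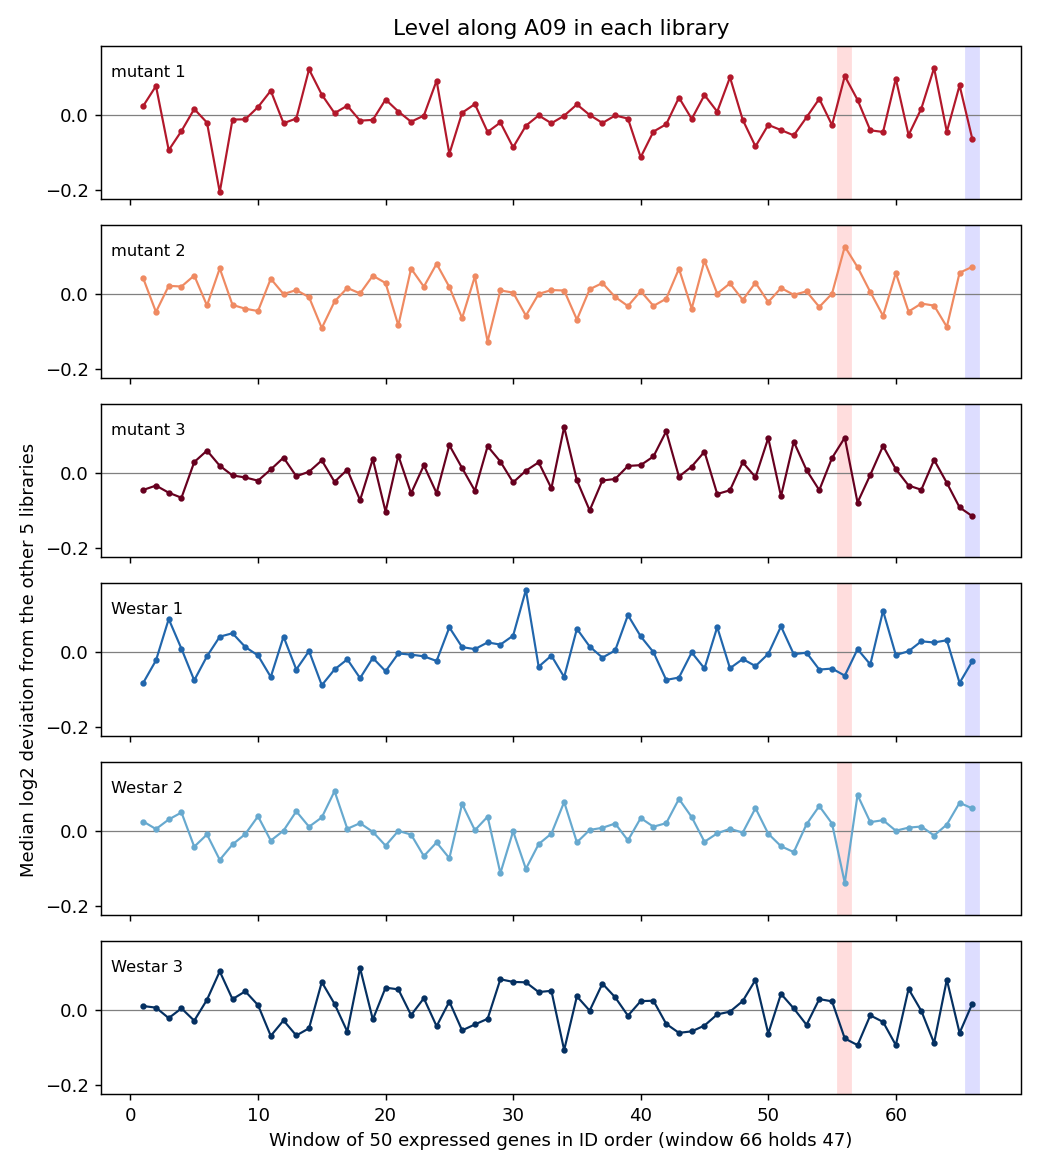
Median log2 deviation of each library from the other 5 in the 66 windows of 50 expressed A09 genes, 1 panel per library on a common axis. The red band marks the window from 5696 to 5779, where the 3 mutant libraries are above 0 and the 3 Westar libraries below it, and the blue band marks the last window.

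The end of A09 was set beside the rest because its last genes had been seen to be low in mutant library 3. Its values are therefore a description. The last 25 expressed genes (numbers 6624 to 6652) had median deviations of 0.00, 0.01 and -0.21 in mutant libraries 1, 2 and 3, and -0.05, 0.09 and 0.00 in Westar libraries 1, 2 and 3. Mutant library 3 was thus the low one, at 86.7% of the level in the other libraries, and the other 2 mutant libraries lay within the Westar range. Over all A09 genes before these 25, mutant library 3 was at 0.00.

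The drop was uneven within the end. In mutant library 3 the quartiles over the 25 genes were -0.40 and 0.09, and 16 of the 25 lay below 0, against 9 to 14 in the other libraries. It was the lowest of the 6 libraries at 12 of the 25 genes (48%), against 21.8% of all expressed A09 genes. Since the end was chosen for low values in this library, these counts follow in part from that choice. The deviation was -0.38 over the last 10 genes, -0.12 over the last 50 and -0.10 over the last 100.

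The very end held a run of low values in mutant library 3. Its length of 8 genes was set by these same values, since number 6644 before it was at 0.43. Of the last 10 genes 9 were below 0 in this library, against 6 and 3 in mutant libraries 1 and 2. The Westar libraries 1, 2 and 3 had 4, 3 and 5. The last 8 expressed genes, numbers 6645 to 6652, were all below 0 in mutant library 3, against 4 and 2 of 8 in mutant libraries 1 and 2 and 4, 2 and 4 of 8 in Westar libraries 1, 2 and 3. ID number 6645, one of the abundant genes of the end, had 123.8, 123.8 and 82.8 CPM in mutant libraries 1, 2 and 3, and 119, 143 and 125 CPM in Westar libraries 1, 2 and 3. ID number 6651 had 109, 107 and 83.2 CPM in the mutant libraries and 84.6, 91.6 and 89.7 CPM in the Westar libraries. At both, mutant library 3 was the lowest of the 6. At number 6651 it lay close to Westar library 1, and mutant libraries 1 and 2 were above every Westar library.

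The last expressed gene of A09, number 6652, had 18.1, 22.9 and 11.8 CPM in mutant libraries 1, 2 and 3, and 18.7, 15.4 and 24.2 CPM in Westar libraries 1, 2 and 3. Here too mutant library 3 was lowest, although the Westar libraries themselves spread from 15.4 to 24.2 CPM. At number 6647 mutant library 3 and Westar library 3 were equally low, with 18.5, 13.4 and 6.38 CPM in the mutant libraries and 8.97, 17.7 and 6.3 CPM in the Westar libraries. Number 6646, at 7.18, 5.53 and 6.19 CPM in the mutant libraries and 9.47, 7.37 and 6.36 CPM in the Westar libraries, was lowest in mutant library 2.

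The 4 genes between these showed the same mixture. Number 6648 was lower in every mutant library, with 19.1, 22.3 and 18.6 CPM in the mutant libraries and 25, 25.7 and 24.4 CPM in the Westar libraries, but without passing the test (edgeR adjusted p = 0.36, log2 fold change -0.32). Number 6649 had 28.2, 29.6 and 22.3 CPM in the mutant libraries and 20.3, 27.4 and 24.7 CPM in the Westar libraries. Number 6650 had 24.9, 28.7 and 21.9 CPM in the mutant libraries and 28.7, 25.3 and 29.0 CPM in the Westar libraries. Both of these overlapped between the groups.

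The earlier 2 of the last 10, numbers 6643 and 6644, differed from each other. Number 6643 had 5.31, 4.9 and 4.13 CPM in the mutant libraries and 7.06, 6.17 and 6.46 CPM in the Westar libraries, with every mutant library lower (log2 fold change -0.46, edgeR adjusted p = 0.377). Number 6644 had 9, 22 and 20 counts in the mutant libraries and 45, 14 and 15 in the Westar libraries, too few to rank the groups. The deepest drop of mutant library 3 in the end was at number 6640, with 10.7, 11.5 and 2.19 CPM in the mutant libraries and 6.1, 14.5 and 10.9 CPM in the Westar libraries. Mutant library 3 was the lowest there, and Westar library 1 was also below the other 4.

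**Figure D5:**
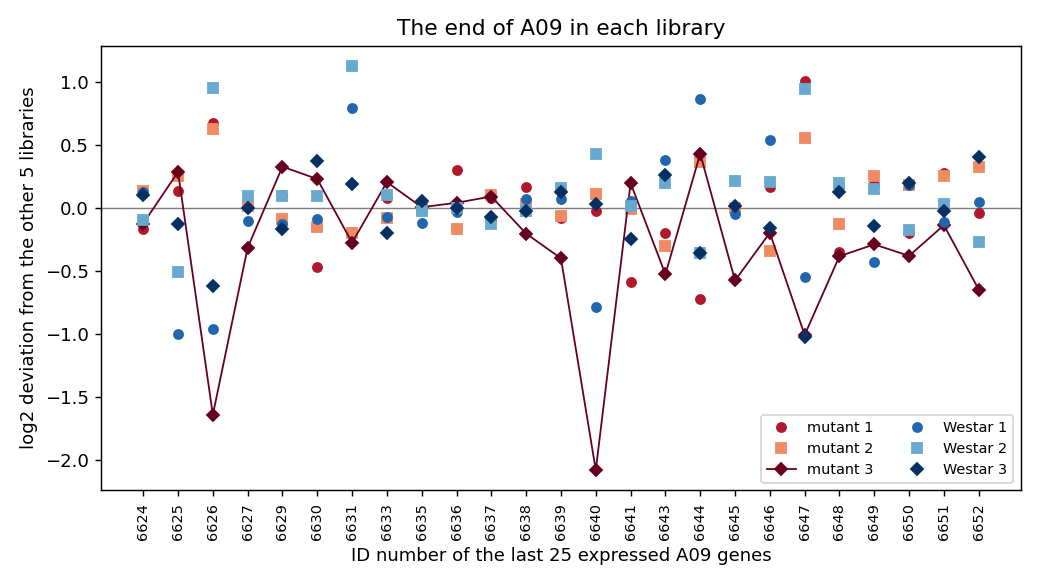
Log2 deviation of each library from the median of the other 5 at the last 25 expressed A09 genes in ID order, with mutant library 3 joined by a line. Mutant library 3 lies below 0 at 16 of the 25 genes and at 9 of the last 10, with its deepest values at numbers 6626 and 6640.

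Between the genotypes, the last 25 genes had a median log2 fold change of -0.06, and the rest of A09 one of 0.01. The number called among the 25 was 0 (lowest edgeR adjusted p = 0.307), where 0.194% of all tested genes were called. An unadjusted p under 0.05 was reached by 3 (12%), against 11.5% of all tested genes. Without mutant library 3 and Westar library 1 the median of the last 25 was 0.0059. The first 25 expressed genes were at 0.07. The same measure over the 37 other chromosome ends ran from -0.18 to 0.20, so the end of A09 lay inside that range.

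With A10 set aside, the level of the A09 end in mutant library 3 was only just below that of other ends. The A09 end was chosen for being low in this library, so its place among them is no independent result. In this library the 35 ends of the chromosomes other than A10, apart from the A09 end itself, ran from -0.18 to 0.29. Over all libraries, and without A10 in mutant library 3 and the start of C09 in Westar library 1, 2 of 219 end values were as far from 0 as the A09 end, both of them above 0. The lowest of the 219 was -0.19. The ends set aside were lower than the A09 end. A10 was at -0.34 over its first 25 genes and -0.36 over its last 25 in mutant library 3. The first 25 genes of C09 were at -0.29 in Westar library 1.

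At the start of A09 the Westar libraries differed from each other. Its first 25 expressed genes had median deviations of 0.00, 0.03 and -0.01 in mutant libraries 1, 2 and 3, and -0.11, -0.13 and 0.20 in Westar libraries 1, 2 and 3. The mutant libraries lay close together, and Westar library 3 stood above the other 2 Westar libraries. A single break placed by least squares, which always returns some place, fell after the first 22 expressed genes (number 54) in Westar libraries 2 and 3, with medians of -0.19 and 0.21 over those genes. It fell before the last 13 genes in mutant library 3, with a median of -0.39 over them, inside the end that had been chosen for its low values. In mutant libraries 1 and 2 and in Westar library 1 it fell after numbers 177, 5007 and 5513, with medians between -0.014 and 0.038 on either side. At the start of A09 the libraries that stood apart were thus Westar ones, and at its end a mutant one.

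The ends of C08 and C09, chromosomes of the other subgenome, were set beside it for mutant library 3. Its deviations were -0.01 and -0.08 at the first and last 25 genes of C08, and 0.11 and 0.02 at those of C09. The log2 fold changes of neighbouring expressed A09 genes were barely alike (Pearson's r = 0.07 and Spearman's rho = 0.03 across 3271 pairs of neighbours, which are genes and not independent replicates), with r from -0.01 to 0.17 on the other chromosomes. Mutant library 3 scattered more than the others over all expressed A09 genes, with a median absolute deviation of 0.23 log2 units, against 0.19 and 0.18 in mutant libraries 1 and 2 and 0.17 to 0.19 in the Westar libraries. It was also the shallowest library. The part of this scatter and depth in its low A09 end was not tested.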

How the data were processed

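RNA was measured by sequencing of polyadenylated transcripts from shoot apices, in 3 mutant and 3 Westar libraries grouped by their titles. The values, deposited as 1 table, are raw read counts for each gene, in 1 column for each library. HISAT2 2.2.1 and featureCounts are named, per the submitters' processing notes; the genome build, annotation, strand setting and handling of reads with several matches are stated by no source used here. Without a known strand setting, overlapping genes on opposite strands cannot be told apart.

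From the counts, edgeR 4.0.16 (R 4.3.3) was run over the whole table with TMM scaling, filterByExpr at its default minimum count of 10, its quasi-likelihood F test, a model with group alone, and p adjusted over all tested genes by Benjamini-Hochberg. Standard errors came from the F statistic. Single values per library were compared by exact permutation tests in scipy 1.17.1. CPM were scaled by TMM, and 0.5 CPM was added before logs. Genes given with values are every called gene, the 3 most abundant and the last 10, a rule extended after their values were seen to the 3 expressed genes on each side of a called one, genes with 3 or fewer counts over a genotype, uncalled changes of 4-fold or more, genes in the highest window and low genes of the end. The members and lists were chosen with earlier results of these data known. Blocks under 10% expressed were joined as the stretch with few expressed genes, a limit also set after the shares were seen. Alternatives were other scalings, filters, DESeq2 1.42.0, a replicate block, and leaving out libraries. No gene lists could be used, since the IDs carry no names.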

Additional observations from a re-analysis of the deposited data

How the results depend on the processing

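With no filter beyond all-zero rows, the 7 changed A09 genes became 26, 9 of them higher. That is 0.789% of the 3297 expressed A09 genes, against 0.665% of all 67780 rows with any count. These shares are over unlike sets, since only the second includes rows below the count rule. DESeq2 gave 44 (23 higher), and an edgeR adjusted p under 0.01 gave 1. Leaving out mutant library 3 and Westar library 1, an alternative chosen after seeing the data, gave 4 (3 higher). Leaving out 1 library gave 1 to 12. The other scalings and filters gave 6 to 8. Some of these fits have fewer libraries; otherwise the cause was not tested. A replicate block gave a count of 3 (0.0914%, against 0.101%), of which 2 were among the 7. Same-numbered libraries had deviations that correlated at -0.15, -0.09 and 0.15 over all tested genes. The largest correlation (0.29) was between mutant library 1 and Westar library 2. Whether the numbers pair the libraries cannot be told from so few values. Each of the 7 kept its direction in the 13 or 14 alternatives run for it, and number 5613 alone kept its call in all (adjusted p up to 0.0192).

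The mutant-minus-Westar difference in the A09 share of counts was 0.0022 percentage points and reversed to -0.00842 without the 10 most abundant genes; leaving out 1 library gave -0.0527 to 0.0427, with no p under 0.4. The median log2 fold change of A09 was -0.032 with library-size scaling, 0.0049 with the replicate block and 0.0027 without mutant library 3 and Westar library 1, and -0.0024 to 0.011 with 1 library left out. The deviation of the A09 end in mutant library 3 was -0.38 over the last 10 genes; its other alternatives gave -0.21 to -0.10. The window from number 5696 to 5779 was at 0.16 with library-size scaling, 0.13 over its middle 25 genes and 0.044 with both neighbouring windows, and at 0.15 to 0.25 with 1 library left out. These window alternatives were chosen after seeing the data. At numbers 4325, 4326 and 4721 the mutant had 2 counts in all, and the part of depth in their values was not tested.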
